A study of Mus musculus with 11 samples.

Results

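The heat shock chaperones described here are 10 genes, Hspa1a, Hspa1b, Hspa8, Dnajb1, Dnaja1, Hsph1, Hsp90aa1, Hsp90ab1, Hspd1 and Hspe1, out of the 25311 genes of a single-cell count matrix of the mouse retina. The members were chosen from earlier results of the same cells, in which Dnajb1 was among the genes most changed in cones of Phase I ROP mice. Their values for Phase I ROP against control, and for the diets against Phase I ROP, which share the same 3 Phase I ROP mice, are therefore a description, with fold changes and errors and no test of single members. Counts of members past the threshold of the fit over all genes (an edgeR adjusted p under 0.05, here a call) are printed once for each comparison beside the share of all genes, and nothing is read from them. The comparison of both diets with each other is tested.

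Retinas of 11 C57BL/6J mice of both sexes were taken at P10, dissociated with papain without the anterior segment and the retinal pigment epithelium, and sequenced by inDrop v3, a droplet method that counts unique molecular identifiers (UMIs). Control mice (labelled PBS, n = 3) received vehicle and their littermates received streptozotocin (labelled STZ, n = 3) from P1 to P9, which raises blood glucose and gives the Phase I retinopathy of prematurity (Phase I ROP) model. The other 5 mice also received STZ and were nursed by dams on an ω-3 diet (labelled STZn3, n = 2) or an ω-6 diet (labelled STZn6, n = 3). No mouse received vehicle together with a diet, so all 8 STZ mice differ from the 3 controls in treatment, and the diet mice differ from the Phase I ROP mice in litter and in feed, which cannot be told apart.

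Molecular chaperones bind unfolded stretches of other proteins and help them fold, refold or be handed on. HSP70 proteins (Hspa1a, Hspa1b, Hspa8) do this in cycles of ATP use. J proteins (Dnajb1, Dnaja1) deliver clients to HSP70 and start its ATP hydrolysis, and HSP110 (Hsph1) releases ADP from it so that a new cycle can begin. HSP90 (Hsp90aa1, Hsp90ab1) matures kinases, receptors and other clients that HSP70 passes on. Hspd1 and Hspe1 form the folding chamber and the lid of the mitochondrial chaperonin. Hspa8 and Hsp90ab1 are known as the constitutive forms, while Hspa1a and Hspa1b are the classical inducible forms, switched on within minutes by heat shock factor 1 when unfolded protein accumulates. Tissue dissociation is itself known to induce them.

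Heat shock factors bind repeats of the unit GAA in alternating orientation, so the promoters of the inducible pair are shown as the reference sequence that such a factor would read. Both sequences come from RefSeq (GRCm38.p6) and are the 130 bases that end just before the transcription start. They run 5′ to 3′ on the gene's own strand, with capitals for the match to GAANNTTC, a pair of units in opposite orientation.
Hspa1a, chr17:34972157-34972286, minus strand: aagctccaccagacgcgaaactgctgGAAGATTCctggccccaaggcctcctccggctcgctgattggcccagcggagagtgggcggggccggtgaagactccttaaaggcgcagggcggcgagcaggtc
Hspa1b, chr17:34959239-34959368, minus strand: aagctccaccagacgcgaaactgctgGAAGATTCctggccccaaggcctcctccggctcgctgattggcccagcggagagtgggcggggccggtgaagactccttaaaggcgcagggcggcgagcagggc
The 2 stretches are identical at 129 of 130 positions, and the genes, both on the minus strand, lie 9952 bp apart. Their transcripts are 84.3% identical over the whole length but 46.8% over the last 500 bases, and the counting may have split reads of the shared part between them, so their sum is given as well.

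The shared promoter region of Hspd1 and Hspe1 is shown for its longer block of units. The annotated starts of these genes (GRCm38, GENCODE) are 111 bp apart on opposite strands, at the top of Hspd1 (chr1:55077835-55088243, minus strand) and of Hspe1 (chr1:55088132-55091307, plus strand). The 30 bases shown lie upstream of a RefSeq start of Hspe1, on its strand, and inside the annotated Hspd1 gene. Capitals mark 18 bases, beginning 89 bases before that start, in which TTCNNGAA and GAANNTTC overlap in phase.
Hspe1, chr1:55088053-55088082, plus strand: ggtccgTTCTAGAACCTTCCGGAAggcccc
Over 300-base promoters, searched on both strands, GAANNTTC or TTCNNGAA was found at 1 or more starts of 17% of 27025 genes and of 6 of the 7 members with a promoter in the table, all but Dnajb1. Dnaja1 and Hspd1 hold it at 1 of their listed starts and not at the others. A pair with one more unit in phase, GAANNTTCNNGAA or TTCNNGAANNTTC, was found, counted in the same way, in 0.662% of genes and in Hsph1, Hspd1 and Hspe1. These matches describe letters only and are no evidence of binding. No promoter was in the table for Hspa8, Hsp90aa1 and Hsp90ab1.

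Cells were grouped into classes by clustering and canonical markers, and UMIs were summed per mouse and class. The tested classes were rods (10178 cells), cones (1126), Müller glia (1425), bipolar cells (3596) and amacrine cells (2978). Of the rods, 2973 cells were in clusters without a rod marker among the 10 leading genes. The groups differed in this, since the largest rod cluster, led by rod genes, held 48.1% of control rods, 82.4% of Phase I ROP rods, 70.5% of ω-3 rods and 60.9% of ω-6 rods, and a cluster led by H2-Bl, with Rn7sk among its 10 leading genes, held 11.2% of control rods and 0.566% of Phase I ROP rods. Rod values are therefore also given from marker-led clusters alone, an alternative chosen after seeing the data. Levels are UMIs per 1000000 UMIs of the class (CPM), given for mouse 1, 2 and 3 in that order, and are not set against gene length, so they compare mice and classes but not genes. In sums over a class, fewer cells that express a gene and less RNA of it per cell cannot be told apart. Depth ran from 2565568 to 6517776 UMIs per mouse, and 1157 cell barcodes occurred in more than 1 library.

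Some libraries stood apart before any result. Phase I ROP mouse 1 had members far above the other mice, as given next. Fitted values of members with Phase I ROP are therefore mostly given with and without it. The 3 control libraries stood apart from all 8 STZ libraries, with 214 to 333 CPM of the small nuclear RNA Rn7sk against 1.08 to 16.1, and 31273 to 47258 CPM of the mitochondrial ribosomal RNA mt-Rnr2 against 2922 to 8185. The summed level of 31 immediate early genes, which also answer to dissociation, was 296 to 512 CPM in control rods and 2174 to 2627 in Phase I ROP rods. Of these genes, 12 of 13 tested were called higher in rods and 10 of 11 in cones. Müller glia had 22 of 25, amacrine cells 22 of 22 and bipolar cells 10 of 12. Over all genes tested, in the same order, 1718 of 8425, 340 of 3125, 282 of 4855, 1921 of 10852 and 2137 of 10019 were called higher. In single control mice, 9 to 15 of the 31 genes had no count in rods and 15 to 26 in cones. A gene low in control passes a filter on low counts through the Phase I ROP mice. Calls as higher were thus likely beforehand, and nothing is read from them. The part of these differences between libraries in the chaperone values was not tested. Cones were few in control retinas, with 14, 13 and 46 cells.

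The inducible pair was highest in Phase I ROP mouse 1 in every tested class. In rods Hspa1a was at 3.33, 18.4 and 4.13 CPM in control and at 554, 57.95 and 50.03 CPM in Phase I ROP, and it was at 18.3 and 23.96 CPM on ω-3 and 14.6, 28.6 and 31.6 CPM on ω-6. Hspa1b in rods was at 66.6, 95.5 and 26.8 CPM in control, 890.1, 81.7 and 86.7 in Phase I ROP, 20.4 and 39.6 on ω-3 and 38.3, 54.6 and 74.9 on ω-6. All 3 Phase I ROP mice lay above all controls for Hspa1a in rods, while for Hspa1b Phase I ROP mice 2 and 3 lay within the control range.

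Müller glia, the radial glia of the retina, gave the widest gap between mice. Hspa1a was at 4.51, 7.17 and 6.06 CPM in control, 794, 20.3 and 51.6 in Phase I ROP, 13.7 and 12.9 on ω-3 and 17.7, 26.1 and 23.01 on ω-6. Hspa1b was at 76.6, 14.3 and 9.10 CPM in control, 1417, 71.2 and 27.8 in Phase I ROP, 19.2 and 15.00 on ω-3 and 3.53, 18.3 and 34.5 on ω-6. Phase I ROP mouse 1 thus had 22.1 times the mean of mice 2 and 3 for Hspa1a and 28.7 times for Hspa1b. Rods had ratios of 10.3 and 10.6, cones 10.1 and 6.84, amacrine cells 6.83 and 4.48, and bipolar cells 5.53 and 3.06.

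Bipolar and amacrine cells had less of the pair than rods, cones and Müller glia in Phase I ROP mouse 1. The sum of both genes in Phase I ROP was 102, 17.9 and 33.6 CPM in bipolar cells against 2.83, 5.76 and 1.23 in control. In amacrine cells the sum was 158, 19.4 and 39.6 CPM in Phase I ROP and 15.1, 2.52 and 7.46 in control. In both classes every Phase I ROP mouse lay above every control mouse. Cones held 832, 116 and 89.8 CPM in Phase I ROP against 85.0, 54.9 and 13.9 in control, without overlap, the control values resting on 73 cells.

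**Figure D1:**
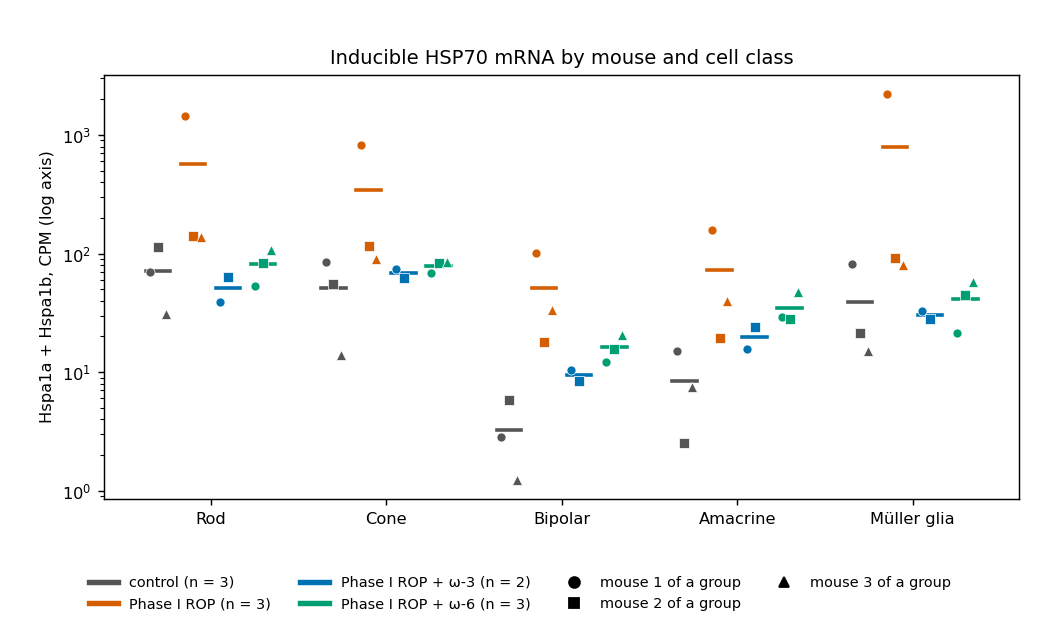
Summed level of Hspa1a and Hspa1b in CPM on a log axis, by class and group, with 1 point per mouse. Phase I ROP mouse 1 reaches 1444 CPM in rods and 2212 CPM in Müller glia, above the other 10 mice in each tested class.

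Fold changes are log2 values of the fit with their standard errors. Hspa1a in rods differed between Phase I ROP and control by 4.74 ± 0.96 with all mice and by 2.70 ± 0.60 without Phase I ROP mouse 1, with 8 UMIs in all control rods together. Hspa1b in rods went from 2.49 ± 0.71 to 0.42 ± 0.42 when that mouse was left out. In amacrine cells Hspa1b was at 3.83 ± 0.78 and at 2.74 ± 0.68 without it, and in Müller glia at 4.03 ± 1.15 and 0.60 ± 0.80. The size of Hspa1b in rods and Müller glia thus rested mostly on 1 mouse. Control held 6 UMIs of Hspa1b in amacrine cells and 5 in bipolar cells, where the gene passed the filter on low counts only without mouse 1, at 2.80 ± 0.70. A gene so low in control passes that filter through the Phase I ROP mice alone, so a difference was bound to appear. In the other cases, neither gene passed the filter in bipolar cells and in cones, nor did Hspa1a in amacrine cells and Müller glia.

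In Phase I ROP mouse 1 the pair was spread over many cells but unevenly. A UMI of Hspa1a or Hspa1b was seen in 28.2% of its 2039 cells, against 7.09% and 8.30% in Phase I ROP mice 2 and 3 and 6.10% of the 17994 cells of the other 10 mice. Of its cells, 155 had 5 or more such UMIs, against 26 cells in the other 10 mice, and the 10% of cells with the most held 79.8% of its 2768 UMIs. The share of its cells with a UMI was 42.5% in cones, 37.4% in Müller glia, 35.4% in rods, 16.2% in amacrine cells and 7.78% in bipolar cells. These shares are not thinned to equal depth, and median UMIs per cell were 1106 in this mouse and between 1002 and 2341 over all mice. No class is known to lack these genes, so free RNA gives no separate baseline here.

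The same mouse had other members high in photoreceptors and Müller glia. All 10 members were highest in Phase I ROP mouse 1 among the 3 Phase I ROP mice in rods, in cones and in Müller glia, with a median ratio to the mean of mice 2 and 3 of 2.51, 2.27 and 2.31. In bipolar cells 7 and in amacrine cells 6 of 10 were highest there, at median ratios of 1.198 and 1.06. The share of all genes highest in mouse 1 is not given here. Among 3983 genes with a mean of at least 50 CPM in rods the median ratio was 0.937, 27 genes (0.678%) were at least 2-fold higher in mouse 1, and the leading ones were Hspa1b, Hspa1a and Hsph1. Cones had 86 of 4201 genes (2.05%) and Müller glia 60 of 4054 (1.48%) above that mark, led in both by the Hspa1 pair. The minimum of 50 CPM took in mouse 1 itself. Over mice 2 and 3 Hspa1a had a mean of 39.3 CPM in cones and 35.95 in Müller glia. Hspa1b had 49.5 in Müller glia and Hsph1 46.7 in rods. Genes under 50 CPM in mice 2 and 3 passed through mouse 1, so their leading place was favoured beforehand and nothing is read from it. The share of mitochondrially encoded UMIs was 8.25% in mouse 1, 3.61% in mouse 2 and 4.50% in mouse 3, and its part in these ratios was not tested.

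Dnajb1 (chr8:83608193-83612653, plus strand), the J protein that works with inducible HSP70, was higher in every Phase I ROP mouse than in every control mouse in each tested class. In rods it was at 13.3, 11.01 and 16.5 CPM in control and 410.3, 137 and 144 in Phase I ROP. Cones held 0 counts in all 3 control mice and 607, 217 and 228 CPM in Phase I ROP. Müller glia had 40.6, 14.3 and 21.2 CPM in control and 534, 178 and 147 in Phase I ROP. Mice 2 and 3 of Phase I ROP were close to each other and above control in these classes, so that the difference did not rest on mouse 1 alone. Control held 15 UMIs of Dnajb1 in all rods together and 18 in Müller glia. A gene so low in control passes the filter on low counts through the Phase I ROP mice. Its difference in cones was also known when the members were chosen, so these values are a description.

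Dnajb1 had lower fold changes in the inner retinal neurons, and the difference between classes was not tested. Bipolar cells held 32.6, 15.8 and 35.7 CPM in control against 105, 85.95 and 78.4 in Phase I ROP, and amacrine cells 27.6, 22.7 and 34.3 against 94.1, 71.5 and 55.9. The log2 fold change was 1.66 ± 0.29 in bipolar cells (1.52 ± 0.34 without mouse 1) and 1.37 ± 0.28 in amacrine cells (1.14 ± 0.30), beside 3.94 ± 0.48 in rods (3.24 ± 0.39) and 3.52 ± 0.53 in Müller glia (2.68 ± 0.43). In cones, where control had no count, Phase I ROP was at least 17.8-fold higher, and at least 12.2-fold without mouse 1, against a floor of 3 counts over the 168167 UMIs of all control cones. The floor covers counting error only and rests on 73 cells.

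The diet mice, which also received STZ, had Dnajb1 above control as well. In cones it was at 147 and 79.2 CPM on ω-3 and 251, 145 and 196 on ω-6, in rods at 105 and 81.02 on ω-3 against 95.1, 80.7 and 138 on ω-6, and in Müller glia at 278 and 180.0 against 205, 224 and 213. No diet mouse overlapped control in these 3 classes. In Müller glia every diet mouse lay above Phase I ROP mice 2 and 3, at 178 and 147 CPM, and below mouse 1, at 534.

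With each cell thinned to 500 UMIs, Dnajb1 was seen in 18.3%, 7.37% and 9.09% of Phase I ROP cones and in 0 of 14, 13 and 45 control cones, and 0 of these 72 cells allows a share of cells with a UMI at that depth of up to 4.17%, in counting error only and taking the cells of 3 mice together. It sets no limit on cells that express the gene. In rods the shares were 14.7%, 6.27% and 7.29% against 0.755%, 0.9804% and 0.791% in control. Unthinned shares in Phase I ROP cones were 48.7%, 28.1% and 24.6%. Thinning lowered the shares, and mouse 1 stayed highest among the Phase I ROP mice in both classes.

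Hspa8 (chr9:40800984-40810087, plus strand), the constitutive HSP70 of the cytosol, was lower in Phase I ROP in both inner neuron classes. In bipolar cells it was at 1799.5, 1626 and 1898 CPM in control and 728, 822 and 899.9 in Phase I ROP, and in amacrine cells at 2034, 1750.3 and 2048 against 1029, 961 and 959.8. Groups did not overlap in either class, and mouse 1 was not apart. By control level the order was amacrine cells, bipolar cells, cones, Müller glia and rods, in which the ranges over mice overlapped between amacrine and bipolar cells and between bipolar cells and cones, and between no other neighbours in the order. The log2 fold change was -1.12 ± 0.12 in bipolar cells (-1.05 ± 0.12 without mouse 1) and -0.9997 ± 0.13 in amacrine cells (-1.05 ± 0.13).

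In photoreceptors and Müller glia the values of Hspa8 lay closer together. Rods held 852, 580.1 and 866 CPM in control and 783, 439.9 and 448 in Phase I ROP, cones 1614, 1153 and 1692 against 1255, 896 and 973, and Müller glia 1077, 925 and 1022 against 883, 844 and 774. Every Phase I ROP mouse was below every control mouse in Müller glia too, and in rods and cones once mouse 1 was left out. The fold change was -0.55 ± 0.25 in rods and -0.60 ± 0.22 in cones with all mice and -0.85 ± 0.26 and -0.67 ± 0.21 without mouse 1. In Müller glia it was -0.21 ± 0.15 and -0.26 ± 0.17. Diet mice were lower still in cones, at 564 and 509 CPM on ω-3 and 654, 569 and 733 on ω-6, all 5 below every Phase I ROP mouse.

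**Figure D2:**
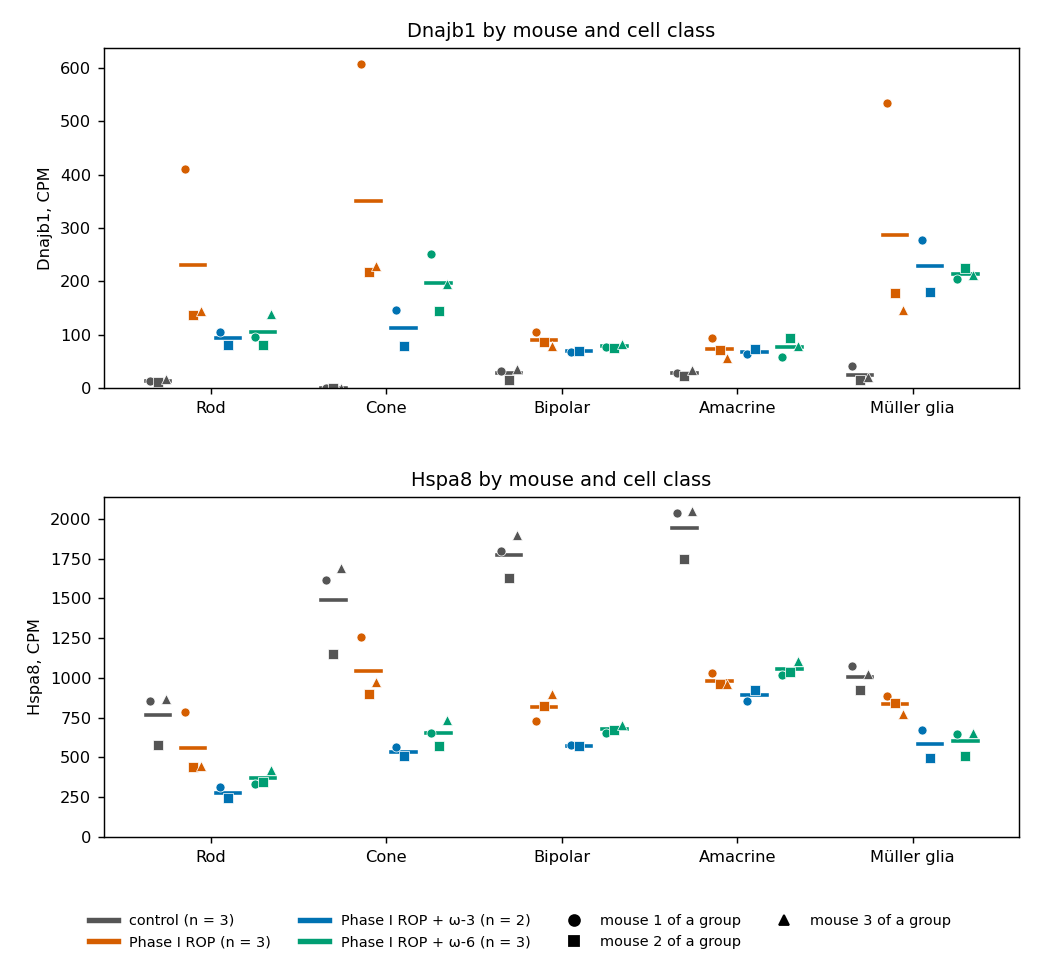
Levels of Dnajb1 (upper panel) and Hspa8 (lower panel) in CPM by class and group, with 1 point per mouse. All 8 STZ mice lie above the 3 control mice for Dnajb1 in rods, cones and Müller glia, and all 8 lie below the controls for Hspa8 in bipolar and amacrine cells.

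Hsph1 (chr5:149614287-149636376, minus strand), the nucleotide exchange factor HSP110, was higher in every Phase I ROP mouse than in every control mouse in amacrine cells and in Müller glia. It was at 25.1, 27.7 and 29.8 CPM in control and 118, 54.6 and 62.97 in Phase I ROP in amacrine cells, a log2 fold change of 1.49 ± 0.31 (1.06 ± 0.29 without mouse 1). In rods it was at 46.6, 36.7 and 18.6 CPM in control and 272, 37.1 and 56.3 in Phase I ROP, and in Müller glia at 108, 78.9 and 75.8 against 469, 152 and 131. The fold changes were 1.85 ± 0.60 in rods and 1.60 ± 0.43 in Müller glia, and 0.47 ± 0.46 and 0.75 ± 0.34 without mouse 1. Bipolar cells had 0.51 ± 0.22 and cones 1.29 ± 0.56, with 0.37 ± 0.25 and 0.66 ± 0.56 without that mouse.

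Dnaja1 (chr4:40722150-40737149, plus strand), a J protein of the cytosol, was above control in all 3 Phase I ROP mice in Müller glia, and mouse 1 was the highest. In rods it was at 149.8, 154 and 159 CPM in control and 381, 165 and 168 in Phase I ROP, and in Müller glia at 239, 158 and 191 against 572, 320.2 and 278. The log2 fold change in Müller glia was 1.05 ± 0.27, and 0.66 ± 0.26 without mouse 1. It was 0.54 ± 0.29 in rods, 1.10 ± 0.54 in cones, -0.17 ± 0.12 in amacrine cells and -0.05 ± 0.13 in bipolar cells, and without mouse 1, in the same order, 0.05 ± 0.27, 0.58 ± 0.56, -0.16 ± 0.14 and -0.12 ± 0.15.

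Hsp90aa1 (chr12:110690605-110702728, minus strand), the stress-responsive HSP90 of the cytosol, had opposite signs in rods and inner neurons. Rods held 1571, 962 and 1624 CPM in control and 3417, 2091 and 2534 in Phase I ROP. Bipolar cells held 1394, 1276 and 1666 in control against 1023, 727 and 839.7, and amacrine cells 1264, 1375 and 1518 against 905, 818 and 899. All Phase I ROP mice were above all controls in rods and below them in both inner classes. The log2 fold change was 0.86 ± 0.27 in rods and 0.68 ± 0.26 without mouse 1. In bipolar cells it was -0.74 ± 0.14 (-0.89 ± 0.14 without mouse 1) and in amacrine cells -0.68 ± 0.13 (-0.72 ± 0.13). Cones had 0.29 ± 0.25 and Müller glia 0.39 ± 0.22, with 0.14 ± 0.20 and 0.03 ± 0.17 without that mouse.

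Hsp90ab1 (chr17:45567775-45573271, minus strand), the constitutive HSP90, was lower in Phase I ROP in the same inner classes. Bipolar cells held 1094, 985 and 1149 CPM in control and 755, 618 and 759 in Phase I ROP, and amacrine cells 1228, 996 and 1280.5 against 799, 870.4 and 800.4, without overlap. The fold changes were -0.60 ± 0.12 (-0.65 ± 0.13 without mouse 1) and -0.52 ± 0.13 (-0.51 ± 0.14). In rods mouse 1, at the highest of 798, 293 and 292 CPM, lay above the controls at 483, 408 and 429 and mice 2 and 3 below them. The rod value was -0.02 ± 0.31 with mouse 1 and -0.65 ± 0.25 without it, and Müller glia had 0.08 ± 0.17 and cones -0.07 ± 0.27, with -0.03 ± 0.16 and -0.32 ± 0.25 without it.

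**Figure D3:**
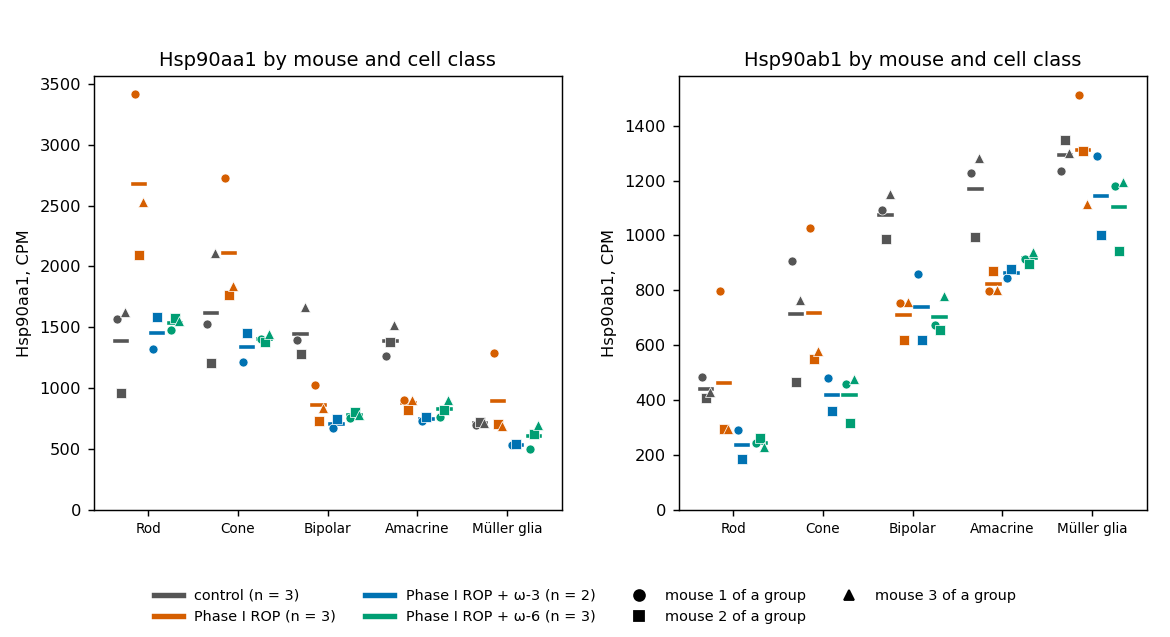
Levels of Hsp90aa1 (left panel) and Hsp90ab1 (right panel) in CPM by class and group, with 1 point per mouse. Phase I ROP mice lie above control for Hsp90aa1 in rods and below control for both genes in bipolar and amacrine cells.

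The mitochondrial chaperonin genes were lower in Phase I ROP in amacrine cells. Hspe1 was at 411, 413 and 424 CPM in control and 213, 257 and 202 in Phase I ROP there, and Hspd1 at 153, 151 and 172 against 107, 107 and 126, both without overlap. The log2 fold change of Hspe1 was -0.91 ± 0.13 (-0.89 ± 0.15 without mouse 1) and that of Hspd1 -0.50 ± 0.16 (-0.47 ± 0.18). In bipolar cells Hspe1, at 359.9, 341 and 330.1 CPM in control and 237, 235 and 235 in Phase I ROP, differed by -0.55 ± 0.13 (-0.56 ± 0.15 without mouse 1), and Hspd1 by -0.18 ± 0.17 (-0.18 ± 0.20).

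In rods, Hspd1 was at 49.9, 77.1 and 72.2 CPM in control and 195, 74.3 and 133 in Phase I ROP, a log2 fold change of 0.93 ± 0.33 and of 0.59 ± 0.35 without mouse 1, with mouse 2 inside the control range. Cones had 0, 0 and 97.1 CPM in control and 163, 116 and 153 in Phase I ROP, at 1.55 ± 0.63 and, without mouse 1, 1.57 ± 0.72. Hspe1 had 0.22 ± 0.27 in rods, 0.86 ± 0.41 in cones and -0.02 ± 0.28 in Müller glia, and Hspd1 0.62 ± 0.41 in Müller glia. Without mouse 1 these values were, in the same order, -0.13 ± 0.27, 0.63 ± 0.44, -0.51 ± 0.24 and 0.04 ± 0.43.

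Counted over the members, Phase I ROP against control called 6 of 10 in rods, all higher, where 41.1% of all genes tested were called. Of these 6, DESeq2 called 2 and gave 1 no adjusted p. In cones 1 of 8 was called, higher, against 18.8% of all genes. Bipolar cells had 5 of 8 (1 higher and 4 lower) against 45.3%, amacrine cells 8 of 9 (3 higher and 5 lower) against 37.7%, and Müller glia 4 of 9, all higher, against 10.8%. With the UMIs of all cells summed, 6 of 10 were called (4 higher and 2 lower) against 48.1%. The comparison also served to choose the members, so nothing is read from these counts. In marker-led rod clusters alone the log2 fold change was 3.94 ± 0.58 for Dnajb1, 4.38 ± 1.06 for Hspa1a, 2.595 ± 0.76 for Hspa1b, 2.82 ± 0.84 for Hsph1, 0.66 ± 0.23 for Hsp90aa1 and 0.79 ± 0.37 for Hspd1, with all mice. The remaining members there had -0.59 ± 0.22 (Hspa8), 0.50 ± 0.31 (Dnaja1), 0.10 ± 0.31 (Hsp90ab1) and 0.22 ± 0.32 (Hspe1).

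Without Phase I ROP mouse 1 the counts were 3 of 10 in rods (2 higher and 1 lower; 34.5% of all genes), 2 of 8 in cones (1 each way, 18.5%), and 6 of 9 in bipolar cells (2 higher and 4 lower, 35.3%). Amacrine cells had 7 of 9 (3 higher and 4 lower, 31.6%), Müller glia 1 of 9 (6.6%) and all cells 7 of 10 (4 higher and 3 lower, 42.1%). The count in Müller glia was also 1 of 10 without any one of the control mice. In rods it was 3 of 10 without control mouse 3. In cones it was 3 of 10 without control mouse 2 or 3 and 2 of 9 without control mouse 1. The median log2 fold change of the members tested was 0.90 in rods, 0.98 in cones and 0.62 in Müller glia, and it was -0.36 in bipolar cells and -0.50 in amacrine cells, while the medians over all genes tested were 0.03, 0.10, 0.00, 0.02 and 0.03. Without mouse 1 the member medians, in the same order, were 0.45, 0.61, 0.04, -0.18 and -0.47.

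**Figure D4:**
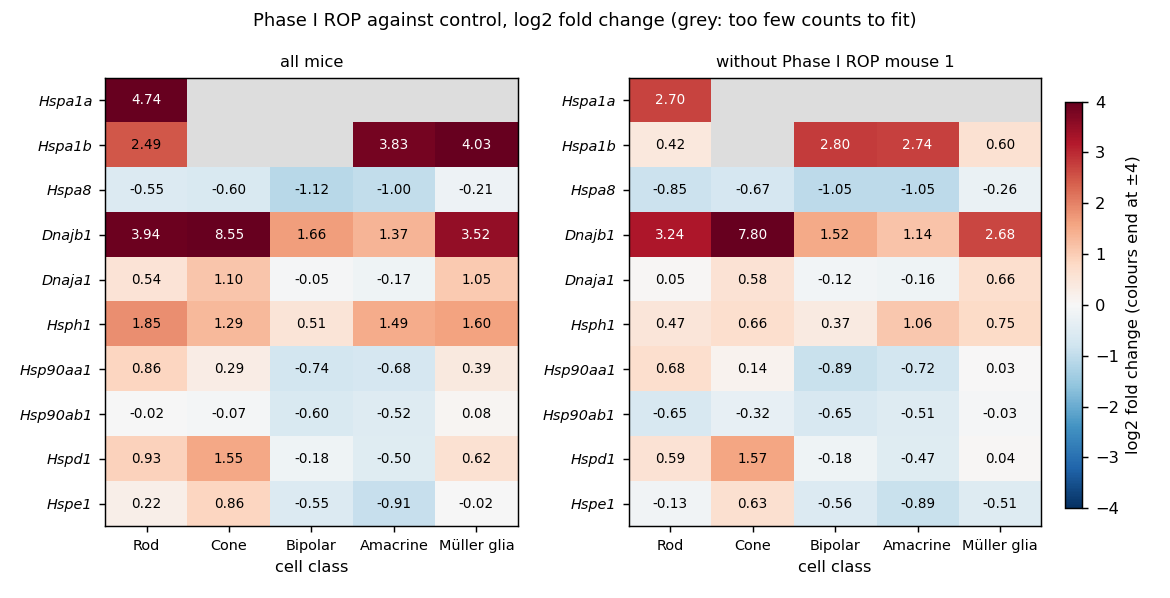
Fitted log2 fold change of each member, Phase I ROP against control, by class, with all mice and without Phase I ROP mouse 1. Dnajb1 keeps 3.24 in rods and 2.68 in Müller glia without that mouse, while Hspa1b falls from 2.49 to 0.42 in rods.

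Between the diets no member was called in any class. Over 47 pairs of member and class, 7 had an unadjusted p under 0.05 and 38 were higher on ω-6. The smallest adjusted p was 0.382 (quasi-likelihood fit of edgeR, Benjamini-Hochberg adjusted over all genes). Over all genes in edgeR, the unadjusted p was under 0.05 for 1385 of 12664 in rods and 736 of 9160 in cones. Müller glia had 283 of 7945, amacrine cells 1167 of 12836 and bipolar cells 503 of 11942. By class, 50.3% to 51.7% of all genes were higher on ω-6. The 47 pairs repeat the same genes in the same mice and are not independent, and their shift was not tested. DESeq2 gave an adjusted p for 36 pairs, with 0 called, 4 at an unadjusted p under 0.05 and a smallest adjusted p of 0.202. The share of all genes called was 0.0158% in rods, beside 0 of 10 members, and 0.0% elsewhere, beside 0 of 10 members in cones, 8 in Müller glia, 10 in amacrine cells, 9 in bipolar cells and 10 in all cells together.

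Of the 7 pairs with an unadjusted p under 0.05, those in photoreceptors included Hspe1, Dnaja1 and Hspa1b. Hspe1 in cones was at 130.3 and 113 CPM on ω-3 and 226, 169.8 and 212 on ω-6, a log2 fold change of 0.73 ± 0.21 (edgeR adjusted p = 0.537). Dnaja1 in rods was at 103 and 92.4 CPM on ω-3 and 131, 134 and 134 on ω-6, 0.44 ± 0.15 (edgeR adjusted p = 0.382). Both had every ω-6 mouse above every ω-3 mouse and failed the adjustment. Hspa1b in rods, at 20.4 and 39.6 CPM on ω-3 and 38.3, 54.6 and 74.9 on ω-6, overlapped between the diets and differed by 0.85 ± 0.32 (edgeR adjusted p = 0.392).

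Set beside Phase I ROP, the diet mice had members lower in photoreceptors, with much of the size given by Phase I ROP mouse 1. The members were chosen with earlier results of those 3 mice known, so these differences are a description. In cones Hspa8 differed by -0.83 ± 0.14 (-0.70 ± 0.15 without mouse 1) and Hsph1 by -1.65 ± 0.27 (-0.99 ± 0.23). Hsph1 was at 499.9, 173 and 168 CPM in Phase I ROP cones, 105 and 98.01 on ω-3 and 85.2, 77.6 and 66.02 on ω-6, all 5 diet mice below the Phase I ROP mice. Dnajb1 went from -1.23 ± 0.28 to -0.62 ± 0.25 when mouse 1 was left out.

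In rods Hsp90aa1 was at 3417, 2091 and 2534 CPM in Phase I ROP, 1319 and 1580.4 on ω-3 and 1478, 1579 and 1552 on ω-6, a difference of -0.82 ± 0.13 (-0.61 ± 0.11 without mouse 1) with all 5 diet mice below. Hspa1a in rods differed by -3.28 ± 0.56 and -1.21 ± 0.28 without mouse 1, and Hspa1b by -3.10 ± 0.56 and -1.01 ± 0.27. In Müller glia the differences were -4.09 ± 0.73 for Hspa1a and -4.79 ± 0.83 for Hspa1b, the latter -1.39 ± 0.62 without mouse 1. The median of the members was -0.99 in rods and -0.81 in cones, and -0.49 in both without mouse 1, beside 0.02 and 0.01 over all genes. Müller glia had a median of -0.58, bipolar cells of -0.28 and amacrine cells of -0.12, with -0.19, -0.15 and -0.04 without that mouse.

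The counts of members called are again printed beside the share of all genes, and nothing is read from them. In cones 8 of 10 were called lower (3.26% of all genes), and 2 of 10 without mouse 1 (2.16%). Rods had 4 of 10 lower (0.281%), 1 of 10 without mouse 1 (0.377%) and 2 without ω-6 mouse 1. Müller glia had 2 of 10 (0.0882%) and 0 of 9 without mouse 1 (0.239%). They had 0 of 10 without any one of the ω-6 mice and 1 of 9 without Phase I ROP mouse 3. No member was called in bipolar cells, 0 of 9 with mouse 1 (0.0361%) and 0 of 9 without (0.206%), or in amacrine cells, 0 of 10 both times (0.0% and 0.162%). With all cells summed the count was 0 of 10 with (0.264%) and without mouse 1 (0.171%).

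**Figure D5:**
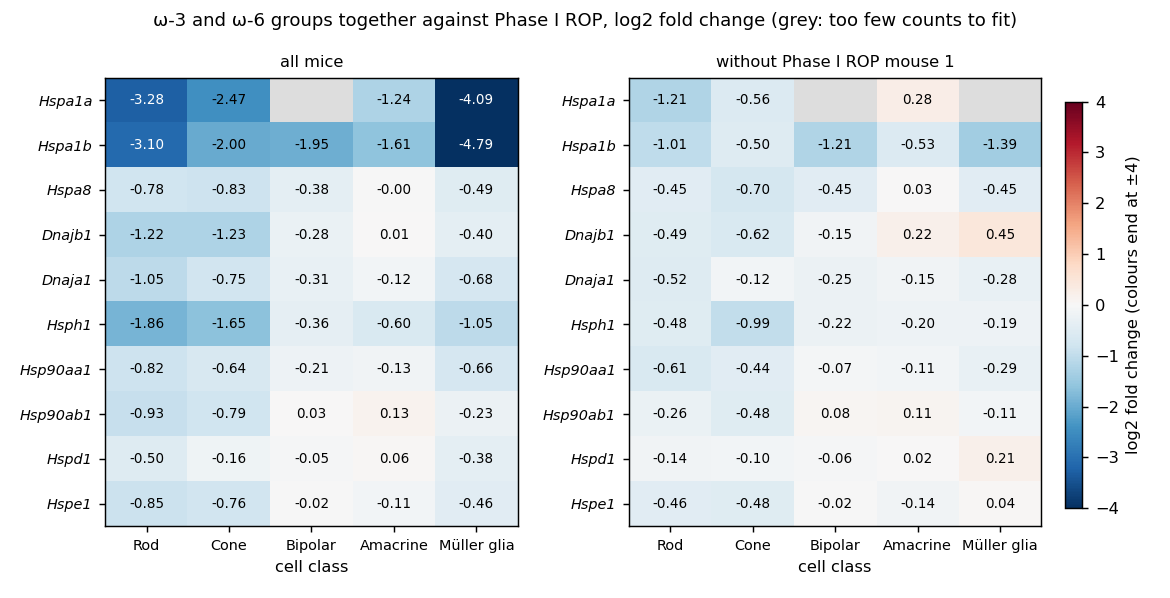
Fitted log2 fold change of each member by class for both diets together against Phase I ROP, with all mice and without Phase I ROP mouse 1. With all mice, the values lie below 0 in rods, cones and Müller glia.

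The 92 related chaperone genes in the matrix were listed by function, with earlier results of these data known. Those named were picked as the largest non-overlapping calls or by function, so their adjusted p values are a description. Among the 92, the subunits of the cytosolic chaperonin TRiC, which folds actin and tubulin, were lower in Phase I ROP in bipolar and amacrine cells. All 8 subunits were called lower in bipolar cells (median log2 fold change -0.93, beside 0.02 over all genes tested) and in amacrine cells (-0.85, beside 0.03), with 5 of 8 called lower in rods, 1 in cones and 1 in Müller glia. Of all genes tested, 45.3% were called in bipolar cells, 37.7% in amacrine cells, 41.1% in rods, 18.8% in cones and 10.8% in Müller glia, in either direction. Those called lower were, in the same order, 2399 of 10019, 2173 of 10852, 1746 of 8425, 247 of 3125 and 244 of 4855. Other groups of related genes are not counted singly here, so nothing is read from the counts of this one. Without mouse 1 the TRiC counts were 8, 8 and 3 of 8, 1 of 7 and 0 of 8. Its subunit Cct5 was at 261, 272 and 257 CPM in control bipolar cells and 86.1, 82.4 and 58.8 in Phase I ROP, -1.80 ± 0.18 (edgeR adjusted p = 4.12e-06), and -1.92 without mouse 1 (edgeR adjusted p = 5.21e-05). Over all related genes 13 were called higher and 12 lower of 78 in rods, 3 and 3 of 50 in cones, 2 and 2 of 57 in Müller glia, 8 and 25 of 81 in amacrine cells and 13 and 24 of 78 in bipolar cells. These shares lie below those of all genes in rods, cones and Müller glia and close to them in the other two classes, so nothing is read from them. Without mouse 1 the counts were 10 and 10 of 80 in rods, 2 and 3 of 34 in cones, 2 and 1 of 61 in Müller glia, 7 and 25 of 81 in amacrine cells and 11 and 19 of 82 in bipolar cells.

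Partners of the members moved in both directions. Ahsa1, which speeds the ATP hydrolysis of HSP90, was higher in rods, at 29.96, 22.03 and 41.3 CPM in control and 151, 111 and 65.2 in Phase I ROP, 1.66 ± 0.36 (edgeR adjusted p = 0.00126). Cdc37, which brings kinases to HSP90, was lower there, at 129.8, 154 and 221 against 89.8, 63.9 and 53.6 CPM, -1.39 ± 0.27 (edgeR adjusted p = 0.000465). Both were called without mouse 1 too, with edgeR adjusted p of 0.0147 and 0.00134. Dnajb14, a J protein of the endoplasmic reticulum membrane, was lower in rods, at 2144, 1828 and 1898 CPM in control and 536, 469.6 and 357 in Phase I ROP, -2.20 ± 0.24 (edgeR adjusted p = 1.15e-06), and -2.31 without mouse 1 (edgeR adjusted p = 1.31e-05).

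Hspa5, the HSP70 of the endoplasmic reticulum, was called higher in rods (0.93 ± 0.25, edgeR adjusted p = 0.00611), cones (1.29 ± 0.36, 0.017), Müller glia (0.96 ± 0.22, 0.0121) and bipolar cells (0.73 ± 0.18, 0.00449). Amacrine cells had 0.01 ± 0.15 (edgeR adjusted p = 0.981). Without mouse 1 the same 4 classes were called, with edgeR adjusted p from 0.0154 to 0.0487. Hsf1, the heat shock factor itself, was higher with all cells summed, 1.05 ± 0.27 (edgeR adjusted p = 0.00772). In rods it was not called, at 1.25 ± 0.50 (edgeR adjusted p = 0.0512). The sum of all cells also differed in class make-up, with rods 1028 of 3205 control cells and 3003 of 5748 Phase I ROP cells. Values of Hsf1 without mouse 1 are not given here. Between the diets no related gene was called in any class, and against Phase I ROP the diet mice had 6 of 79 lower in cones (3.26% of all genes called either way) and 1 of 84 in rods (0.281%), Cacybp, with 4 and 0 without mouse 1. The cone count was 2 without Phase I ROP mouse 3.

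Over the 55 sums of 11 mice and 5 classes, the gene most like Hspa1a in log2 level among 4731 genes with a mean of at least 50 CPM was Hspa1b (Pearson r = 0.83), followed by Dnajb1 (0.65), Jun (0.63), Zbtb18 (0.61) and Amd2 (0.60). With class and group means taken out, mitochondrial transcripts came first, mt-Ts1 at 0.83 and mt-Cytb at 0.81. For Hspd1 the leading genes over all sums were Cop1 (0.86) and Papola (0.85). These sums share mice and libraries, and the correlations are a description.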

How the data were processed

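Single-cell RNA-seq was done by inDrop v3 on dissociated P10 retinas, 1 library per mouse. The authors found barcodes and UMIs with umis in bcbio, left out barcodes below their read minimum, assigned the rest to transcripts of the GRCm38 mouse genome with RapMap, and deposited raw UMI counts as whole numbers (25311 genes by 20067 cells). Of these, 20033 cells with more than 300 genes were kept. Depth ran from 2565568 to 6517776 UMIs per mouse, which limits low genes in small classes.

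Cells were clustered with Seurat 5.3.0 and named from canonical markers, and 309 cells stayed unnamed. Scrublet (scanpy 1.11.5) marked 0.359% of cells, too few to have worked, so no cells were removed, and leaving out the 5% highest scores per mouse was an alternative. UMIs were summed per mouse and class where each mouse had at least 10 cells. The mouse was the replicate, and groups were taken from the sample titles. The main test was edgeR 4.0.16 (R 4.3.3, quasi-likelihood, TMM scaling, filterByExpr), with an adjusted p under 0.05 over all genes of the class as the call, and DESeq2 1.42.0 was an alternative. Members were tested between the diets, and in the comparisons with Phase I ROP calls of members are given only as counts beside the share of all genes. The fitting script was tested on simulated data. CPM used TMM factors over all 11 mice, while each fit scaled only the mice it compared, so folds differ slightly from CPM ratios.

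The members and all lists were chosen with earlier results of these data known. All members are named, and related genes are named as the 3 largest calls each way in a class whose mice do not overlap, or by function. Same-numbered mice of different groups were not paired, since their deviations from the group means did not correlate in every pair. Motifs and coordinates came from RefSeq and GENCODE on GRCm38.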

Additional observations from a re-analysis of the deposited data

Results flagged for a closer look

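For 4 members every Phase I ROP mouse lay above every control mouse in one class and below every control mouse in another. The share of all genes with such a pattern is not given here, so nothing is read from this number. The difference between the classes was not tested in any of these cases. Hsp90aa1 had a log2 fold change higher by 1.60 in rods than in bipolar cells and by 1.55 than in amacrine cells. Dnaja1 was higher by 0.71 in rods and by 1.22 in Müller glia than in amacrine cells. Hspe1 in cones was higher by 1.40 than in bipolar cells and by 1.77 than in amacrine cells, and Hspd1 in cones by 2.05 than in amacrine cells. The cone values rest on 73 control cells.

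Endothelial cells, too few to be tested, held 183 UMIs of Hspa1a and Hspa1b in 7 cells of Phase I ROP mouse 1, which is 5713 CPM, against 35 UMIs in 106 cells of the other 10 mice, 53.8 CPM. Of these 7 cells, 6 had 5 or more UMIs, and 1 cell held 94.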

How the results depend on the processing

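Counts of calls that moved by more than 1.5 times are given here, and the cause was not tested. For Phase I ROP against control, members called were 2 in rods with DESeq2 (6 in the report). In cones, 1 in the report, they were 3 with all 4 groups in 1 fit, 3 with classes by marker score, 4 with no filter on low counts and 0 with sums thinned to equal depth. Related genes called were 13 in rods by marker score (25), 11 in cones by marker score and 2 thinned (6), and 2 in Müller glia with DESeq2 (4). For the diets together against Phase I ROP, members called in rods, 4 in the report, were 2 with all 4 groups in 1 fit, 7 with marker-led clusters only (added after seeing the data) and 9 with no filter. Cones had 5 with DESeq2 (8), and bipolar and amacrine cells 2 each with no filter (0). Müller glia, at 2, had 0 with DESeq2, 0 with cells of more than 500 genes, 0 without the 5% highest Scrublet scores and 1 thinned. All cells had 3 with DESeq2 (0). Related genes called in rods, 1 in the report, were 4 with DESeq2, 5 with no filter, and 0 with all 4 groups, thinned, or clustered without the chaperone and immediate early genes. Bipolar cells had 1 with no filter (0), and all cells, at 0, had 3 with DESeq2 and 1 each with more than 500 genes, median-of-ratios scaling and thinning.

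Leaving out 1 mouse at a time, members called for Phase I ROP against control ran from 3 to 7 in rods, 1 to 3 in cones and 1 to 4 in Müller glia, and related genes from 14 to 24, 1 to 7 and 1 to 4. For the diets against Phase I ROP members ran from 0 to 5 in rods, 2 to 8 in cones and 0 to 2 in Müller glia, and related genes from 0 to 2 in rods and 2 to 8 in cones. Between the diets no member was called under any alternative run.

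A replicate block raised the members called in rods for the diets against Phase I ROP from 4 to 9 and moved no other count by over 1.5 times, but the numbers of the mice pair nothing that the labels name, and deviations of same-numbered mice in the groups of that comparison correlated between -0.02 and 0.20 in rods and between -0.04 and 0.27 over all classes (between -0.06 and 0.27 for the other comparisons).

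The share of Phase I ROP cells with a Dnajb1 UMI, thinned to 500 UMIs, averaged over the mice, was 9.43% in rods, 11.6% in cones, 6.74% in Müller glia, 4.01% in bipolar and 3.96% in amacrine cells. Unthinned it was 14.9%, 33.8%, 19.4%, 13.4% and 16.04%, and at 800 UMIs it was 20.2% (cones), 6.28% (bipolar) and 6.64% (amacrine). With no filter on low counts the median of all genes in cones for Phase I ROP against control moved from 0.10 to 1.15, and the called genes from 340 higher and 247 lower to 413 and 120, so cone values are relative to that shift. Of the fitted values of single members, 23 of 737 changed sign for Phase I ROP against control, 36 of 922 for the diets against Phase I ROP and 37 of 735 between the diets, over all alternatives.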
